A study of Canis lupus familiaris with 40 samples.

Results

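The genes described here were those whose RNA stood low in blood neutrophils, several-fold higher in blood monocytes, and raised in canine polymorphonuclear myeloid-derived suppressor cells (PMN-MDSCs) while staying near the healthy neutrophil level in the ordinary neutrophils of dogs with cancer. They were selected on the measured values themselves. In CPM (the counts of a gene scaled to the total of its library), a gene had to stay under 20000 in every library, to have a mean of at least 2 in healthy neutrophils, and to have a healthy monocyte mean from 3 to under 20 times that neutrophil mean. Its median over the PMN-MDSC libraries had to be at least 20 CPM and at least 4 times the healthy neutrophil mean, and its median over the neutrophils of tumor-bearing dogs had to be under 2 times that mean. Of 24580 Ensembl gene IDs, 70 met these limits (0.285%), so that the cap of 200 genes was not reached.

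RNA of flow-sorted blood cells was sequenced in 40 libraries from tumor-bearing dogs with various tumors and from healthy dogs, one of the 6 cell populations in each library. PMN-MDSCs (9 libraries) were low-density cells of the mononuclear layer of tumor-bearing dogs that carried CD11b and the neutrophil antigen CADO48A but not CD5, CD21, MHC class II or CD14. M-MDSCs (5 libraries) came from the same layer of tumor-bearing dogs and had CD14 in place of CADO48A, and their suppressive function was not tested by the study. C PMN (10 libraries) and H PMN (5 libraries) were dense CADO48A+ CD11b+ neutrophils of tumor-bearing and healthy dogs, sorted as negative for CD5, CD21 and MHC class II, and C Mono (8 libraries) and H Mono (3 libraries) were CD14+ CD11b+ MHC class II+ monocytes of the same 2 kinds of dogs. The study itself reported sequencing of 8 PMN-MDSC and 9 C PMN samples, fewer than the libraries here, and did not state which were left out. The labels give the disease state and the population of a library but not the dog, breed, age or tumor behind it, so that a replicate here is a library and the p-values measure the spread between libraries. The study described PMN-MDSCs beside neutrophils of the same patient, so that libraries of different populations can share a dog. The tests here are unpaired and treat them as independent.

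Neutrophils and monocytes arise from shared myeloid progenitors and part late in their differentiation. Mature neutrophils carry little RNA, and the genes of their granule proteins are transcribed mainly in their precursors in the marrow, whereas monocytes remain active in transcription and can still become macrophages or dendritic cells. PMN-MDSCs are cells of neutrophil form that suppress T cells and accumulate in cancer and chronic inflammation, where they are found among cells of low density together with immature and activated neutrophils. Genes are listed by Ensembl ID in the deposited files, which do not pair the IDs with symbols, and a symbol was found for 0 of them. The members are therefore described by their levels and not by their functions, and their sequences and positions are not given.

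The libraries held from 4229857 to 60473238 counts assigned to genes. Only 1 PMN-MDSC library (replicate 9, 6299310 counts) and 1 C PMN library (replicate 7, 4229857 counts) had under 10000000 counts. In these 2 libraries the 10 most abundant genes took 58.7% and 63.9% of the CPM, against 28.9% or less in each of the others, and only 3959 and 3470 genes had 10 or more counts, against at least 9480 elsewhere. Both are kept in the values below. Without them the limits were met by 80 genes, 69 of them members, and the members' other values without them are given at the comparisons.

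Across the 70 members, the H PMN mean had a median of 7.64 CPM and the H Mono mean a median of 59.6 CPM. The PMN-MDSC median over libraries had a median of 53.2 CPM over the members, with quartiles of 37.2 and 109 CPM and a highest value of 3336 CPM. The C PMN median had a median of 6.57 CPM over the members. The selection used all 4 of these values. It placed PMN-MDSC and H Mono above H PMN and capped C PMN, so that these values describe the choice and carry no test. Relative to the H PMN mean, the PMN-MDSC median was between 4.06 and 55.8 times as high, with a median of 6.89 times, and 21 members were at 10 times or more. The H Mono mean was between 3.1 and 18.7 times the H PMN mean, with a median of 6.74 times. At the lower limit of the rise, the 3 members nearest to it had 4.06, 4.24 and 4.26 times the H PMN mean, and the 3 genes just outside it, with the other limits met, had 3.95, 3.95 and 3.94 times. The C PMN limit removed 13 of the 83 genes that met all the other limits.

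Where the PMN-MDSC level stood relative to the monocyte level differed from member to member. The selection required a rise above H PMN but set no limit between PMN-MDSC and H Mono, and the shares given here are a description of values it used. The position of a member was expressed as the share of the way from the H PMN mean to the H Mono mean that its PMN-MDSC median had covered, 0 being the neutrophil and 1 the monocyte level in CPM. The median share over the members was 1.08, with quartiles of 0.66 and 1.77. The share was under 0.5 in 14 members, between 0.5 and 1 in 18, between 1 and 2 in 25, and over 2 in 13. The PMN-MDSC median thus exceeded the H Mono mean in 38 members and was within 2-fold of it in 46. It was over 2 times the H Mono mean in 11 members and under 0.5 times in 13. These positions depended on the scale. With TMM factors, which scale libraries by the bulk of their genes and lower the monocyte values relative to the neutrophil values, the median share was 1.96 and 54 members exceeded the H Mono mean.

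**Figure D1:**
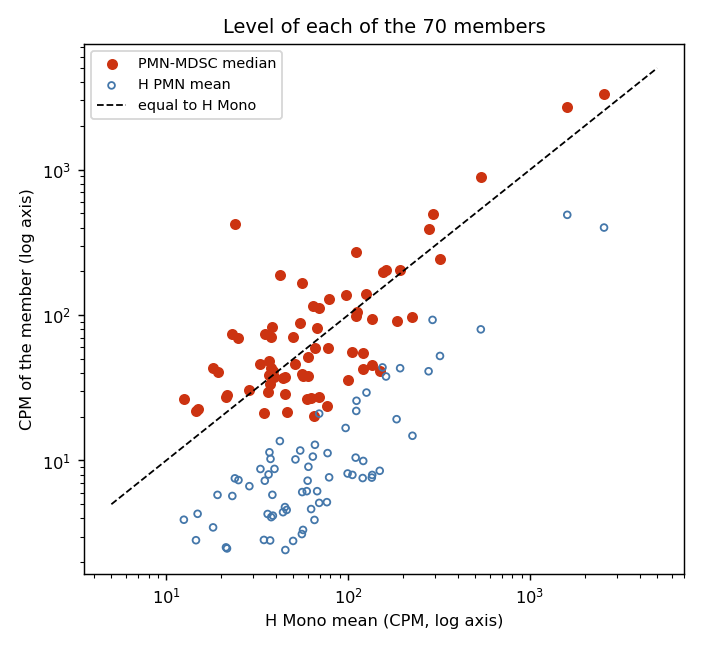
Level of each of the 70 members in CPM, with the H Mono mean on the x axis and the PMN-MDSC median (filled) and the H PMN mean (open) on the y axis, both axes logarithmic; the dashed line marks equality with H Mono. The filled points lie on both sides of the line, 38 above it and 32 at or below it.

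The member with the highest level per length in PMN-MDSCs, with a median of 3407 TPM (transcript abundance corrected for gene length), shows the common pattern. Its CPM in the 5 H PMN libraries was 377, 464, 463, 429 and 267. In C PMN libraries it was between 76.6 and 1434 CPM, with a median of 344, and in the 3 H Mono libraries it was 2571, 3013 and 2073 CPM. In 6 of the PMN-MDSC libraries it was between 3204 and 4756 CPM, above each H Mono library, but in replicates 3, 8 and 9 it was 522, 472 and 343 CPM, within the C PMN range. The 5 M-MDSC libraries had 4111, 2675, 3097, 2331 and 2744 CPM, and the 8 C Mono libraries between 2049 and 3864 CPM with a median of 2870, so that these groups overlapped each other and the 6 high PMN-MDSC libraries. In CPM, 19 of the 70 members reached a PMN-MDSC median of 100.

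The split among the PMN-MDSC libraries ran through most of the members. The summed CPM of the 70 members, as a percentage of their summed H Mono mean, was 157, 153, 179, 161, 149 and 131 in PMN-MDSC replicates 1, 2, 4, 5, 6 and 7. It was 43.9 in replicate 3, 27.6 in replicate 8 and 62.2 in replicate 9. In C PMN libraries the sum lay between 9.05 and 41.6% and in H PMN libraries between 13.8 and 20.9% of H Mono, so that the 6 libraries stood far above all neutrophil libraries and replicate 8 stood within the C PMN range. The typical member gave the same split, with a median over the members of 50.9 to 73.7 CPM in the 6 libraries and of 8.22, 12.3 and 6.83 CPM in replicates 3, 8 and 9, against 2.13 to 10.5 CPM in C PMN libraries. By this median replicates 3 and 9 were within the C PMN range and replicate 8 just above it, the reverse of the sums. In each of the 6, between 63 and 68 members were above every C PMN and H PMN library. In replicates 3, 8 and 9 only 5, 18 and 22 members were. The selection set the PMN-MDSC median high and capped the C PMN median, so that these counts describe the choice. Their shares over all genes were not counted.

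Counting error was small beside these gaps. The members took 0.439% of the counts of replicate 3 (95% Wilson interval, 0.437 to 0.441), 0.276% of those of replicate 8 (0.274 to 0.278) and 0.623% of those of replicate 9 (0.617 to 0.629), and these intervals cover counting error only, since the reads had no molecular identifiers. Replicates 3 and 8 had 43296791 and 26160902 counts, and 10526 and 10527 genes with 10 or more counts, within the range of the 6 high libraries in genes. In replicate 9 the sum rested on fewer members. Its 3 highest members held 50.04% of its member sum, 20 members were under 1 CPM there, and 2 members had no count, which allows up to 0.476 CPM. With TMM factors, replicates 3 and 8 had sums of 72.1 and 39.8% of H Mono, within the C PMN range of 24.9 to 96.8%, and the 6 high libraries had sums from 213 to 290%, whereas replicate 9 moved to 641%. On that scale replicate 9 was the highest of the group, so that its place among the low libraries depended on the scaling.

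**Figure D2:**
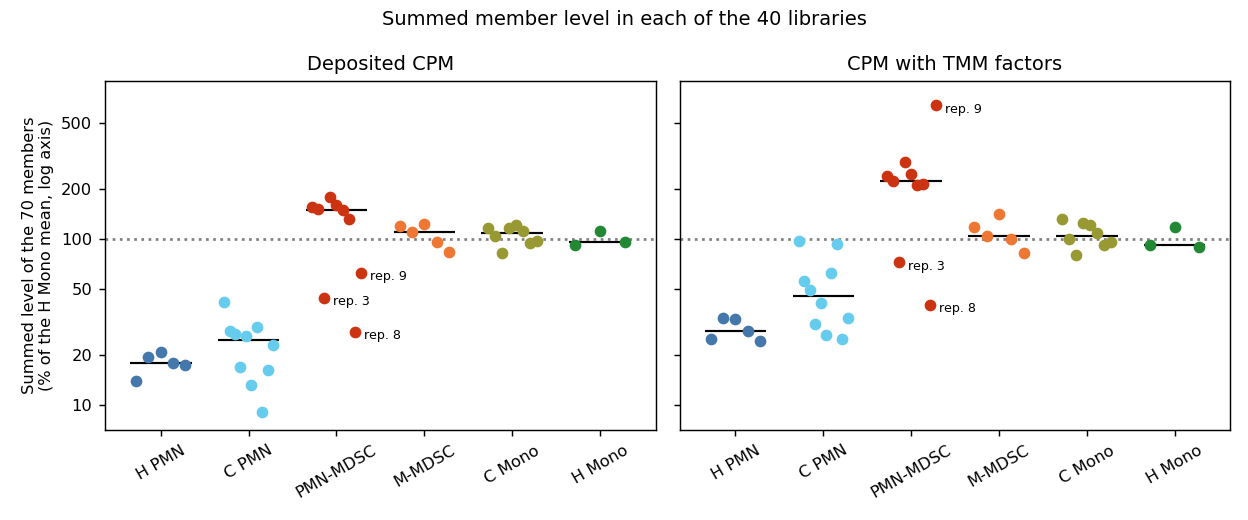
Summed level of the 70 members in each of the 40 libraries (1 point each) by population, as a percentage of the H Mono mean on a logarithmic axis, in the deposited CPM (left) and in CPM with TMM factors (right); horizontal lines are group medians and the dotted line is 100%. Replicates 3 and 8 of PMN-MDSC stand low in both panels, and replicate 9 stands at 62.2% on the left and 641% on the right.

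Member by member, replicate 3 was among the 3 lowest of the 9 PMN-MDSC libraries in 67 of 70 members (95.7%), replicate 8 in 66 (94.3%) and replicate 9 in 54 (77.1%). Over the 3872 genes with a PMN-MDSC median of at least 20 CPM, these shares were 34.2, 34.5 and 88.7%. The low place of replicate 9 in CPM was therefore not particular to the members. The 3 lowest libraries were exactly replicates 3, 8 and 9 in 51 members (72.9%), against 708 of the 3872 genes (18.3%). The members were chosen for a rise over H PMN and those genes were not, so that the contrast is no test. With the same limits but H Mono under 3 times H PMN, the count was 72 of 78 genes. With H Mono at least 20 times H PMN it was 14 of 34. Among the 8 libraries of full depth, replicates 3 and 8 were the lowest pair in 63 members. The selection used the median of the 9 libraries and therefore required at least 5 of them to be high, but it did not set which libraries were low. Because of the low libraries, no member had every PMN-MDSC library above every C PMN library, and the share over all genes was not counted. In 58 members each of the 6 other libraries was above every C PMN and H PMN library, a count that was chosen after the values were seen and is given without a test. It rests on values that the selection used, and the share over all genes was not counted. Without the library of low depth the median share of the way to H Mono over the 70 members was 1.28. Without replicates 3 and 8 the median share of the way to H Mono was 1.25, and without replicates 3, 8 and 9 it was 1.37 and 46 members exceeded the H Mono mean.

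**Figure D3:**
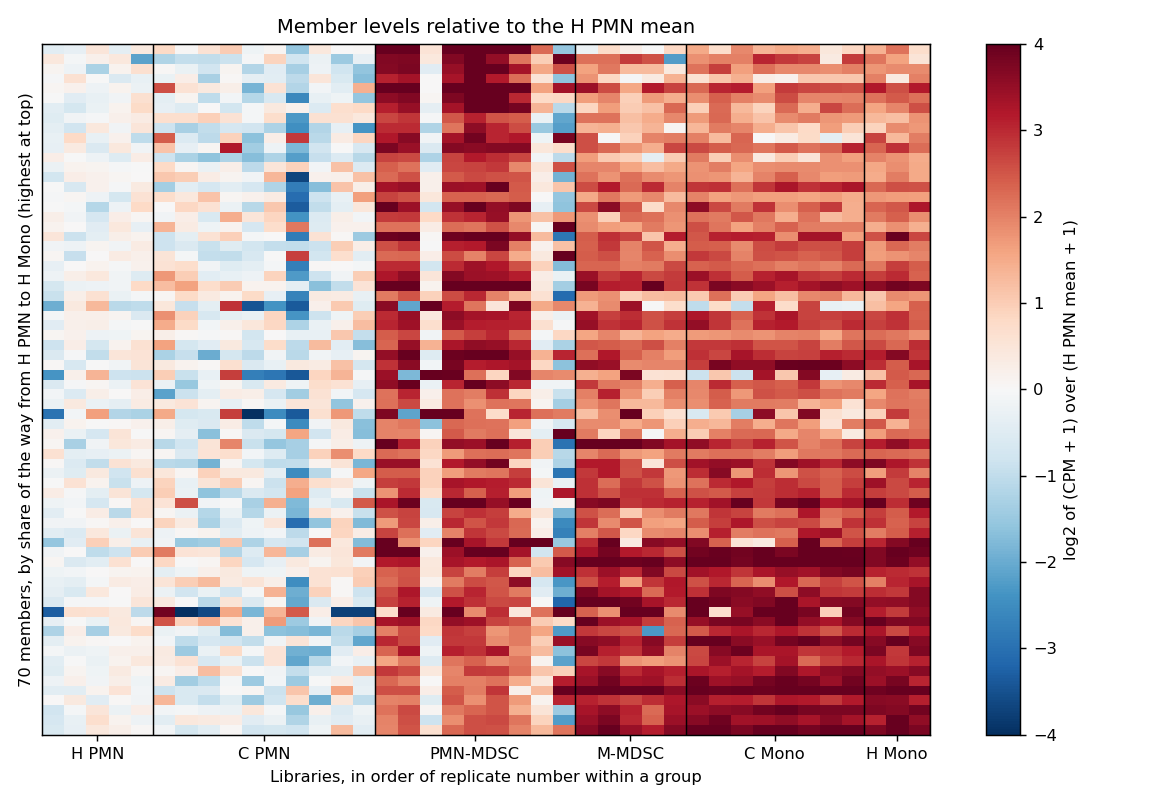
Level of each member (rows, ordered by share of the way from H PMN to H Mono) in each of the 40 libraries (columns, by population and replicate), as log2 of CPM + 1 over the H PMN mean + 1. In the PMN-MDSC block, the third and eighth columns are pale in most rows and the ninth is mixed, while the other 6 are red throughout most rows.

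To ask which cells the libraries held, lists of 50 monocyte-restricted and 50 neutrophil-restricted genes were made from the healthy libraries (mean of at least 50 CPM in the lineage and at least 50-fold less in the other). Neither list contained a member. The monocyte list stayed low in PMN-MDSCs. Its median gene was at 0.25 to 3.61% of the H Mono mean over the 9 libraries and its summed CPM at 0.55 to 11.3%, against 0.13 to 1.26% and 0.25 to 3.22% in C PMN libraries. In the 6 high libraries the summed list was at 6.18 to 11.3%, above every C PMN library, and its median gene was at 0.36 to 3.61%, while the summed members stood at 131 to 179%. At most 1 of the 50 monocyte genes was at 0 in any PMN-MDSC library, as in C PMN libraries (at most 1) and nearly so in H PMN libraries (at most 2). The neutrophil list divided the PMN-MDSC libraries in the opposite sense to the members. Its median gene was at 20.7 to 40.9% of the H PMN mean in the 6 high libraries, and at 88.9 and 73.7% in replicates 3 and 8, within the 58.8 to 99.5% of the 9 C PMN libraries of full depth. In replicate 9 it was at 0.76% and in C PMN replicate 7, the other library of low depth, at 6.41%. The sum of the neutrophil list pointed the other way from its median gene, at 130 to 229% of H PMN in the 6 high libraries, 99.0 and 98.8% in replicates 3 and 8 and 581% in replicate 9. The part of other cells or of cell maturity in the member levels was not tested. In bulk libraries such as these, fewer cells of a type and less RNA per cell cannot be told apart.

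**Figure D4:**
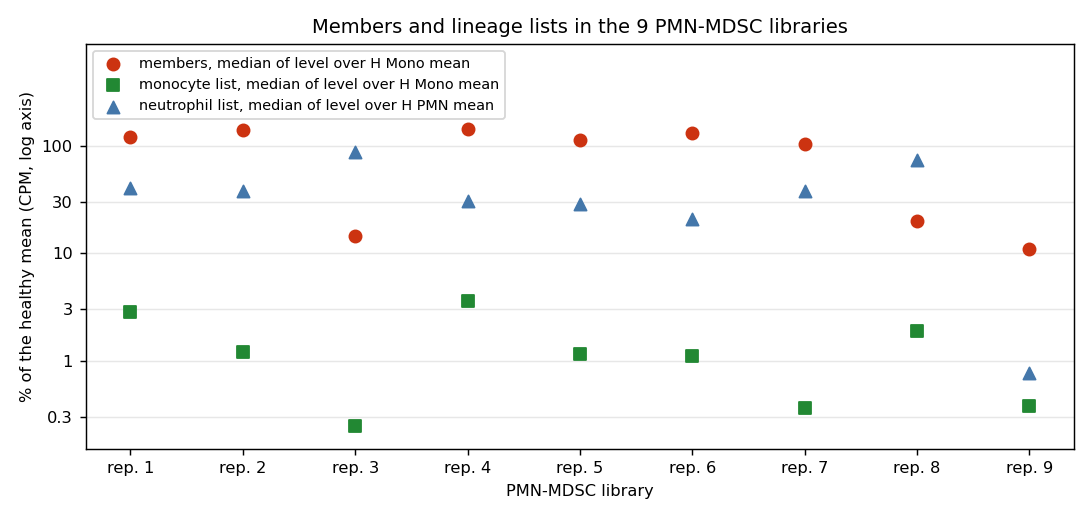
The 9 PMN-MDSC libraries (x axis) with the median gene of the members and of the monocyte list as a percentage of the H Mono mean, and of the neutrophil list as a percentage of the H PMN mean (deposited CPM, logarithmic axis). The members are above 100% in 6 libraries and between 11 and 20.2% in replicates 3, 8 and 9, where the neutrophil list is at 88.9, 73.7 and 0.76%.

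The members varied together across PMN-MDSC libraries but not across monocyte libraries. Over the 8 PMN-MDSC libraries of full depth, the median Pearson correlation of log2(CPM + 1) over the 2415 pairs of members was 0.91, with quartiles of 0.80 and 0.95, and over all 9 libraries it was 0.78. Over the 8 C Mono libraries it was 0.05, with quartiles of -0.26 and 0.32. These are descriptions, since all pairs share the same libraries and their depth, and in PMN-MDSCs the split described above. The members were also chosen on their PMN-MDSC median and not on C Mono, and the correlation over other genes was not computed. Single members also varied more in PMN-MDSCs than in C Mono. The coefficient of variation over libraries had a median of 67.9% in PMN-MDSCs and of 24.2% in C Mono. In gene length, judged from the ratio of CPM to TPM, the members were ordinary, with a median of 1.04 and quartiles of 0.55 and 1.84 relative to the median of 6880 genes of at least 10 CPM in H Mono, whose own quartiles were 0.54 and 1.76.

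An exception were 3 members that followed a course of their own, picked out after their values were seen because they alone were at or above the H Mono mean in PMN-MDSC replicate 3. The first had 991 CPM in replicate 3 and 9.15 CPM in replicate 2, and between 72.9 and 787 CPM in the other 7 PMN-MDSC libraries. The second had 845 CPM in replicate 3 and 9.47 CPM in replicate 2, and the third had 660 and 7.67 CPM. All 3 were thus highest in a library in which most members were low, and lowest in one in which most members were high. They also varied within the other populations, the first between 0.70 and 297 CPM in C PMN, between 4.76 and 135 CPM in H PMN, between 67.0 and 800.2 CPM in M-MDSC and between 16.5 and 573 CPM in C Mono. All 3 were highest in replicate 4 among the C PMN libraries, in replicate 3 among the H PMN libraries and in replicate 3 among the M-MDSC libraries. They differed in C Mono (highest in replicates 6, 4 and 6) and in H Mono (replicates 2, 3 and 2). A replicate number only counts the libraries within a group and links no libraries across groups. The pairwise correlations of the 3 members over the 40 libraries were between 0.97 and 0.99, and their median correlation with the other 67 members over the PMN-MDSC libraries was -0.25. They made up 56.8% of the member sum of replicate 3, and without them that sum was 19.9% of H Mono. Whether the 3 share reads or a position in the genome was not tested.

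Of the comparisons open to a test, M-MDSC against C Mono was the only one between populations that took no part in the selection. It asks whether the monocytic MDSCs kept the monocyte level of these genes. The summed members stood at 119, 110, 124, 96.2 and 83.4% of H Mono in the 5 M-MDSC libraries and between 82.6 and 121% in the 8 C Mono libraries, with means of 107% ± 16.6 (SD, n = 5) and 106% ± 13.5 (SD, n = 8). The typical member stood lower than these sums in M-MDSC. The median member was at 69.3 to 95.6% of H Mono in M-MDSC and at 88.3 to 103% in C Mono. By this median, M-MDSC replicates 3, 4 and 5 were below every C Mono library. In CPM the M-MDSC median was under the C Mono median in 53 of 70 members, and the share over all genes was not counted. By edgeR's quasi-likelihood test over 11874 genes at a false discovery rate (FDR) of at most 0.05, 1 member was higher in M-MDSC (1.43% of the members, against 0.505% of all genes tested) and 0 were lower (against 0.253%). At an unadjusted p under 0.05 there were 14 members, 2 of them higher and 12 lower, against 1626 of all genes (13.7%), and DESeq2 called 1 higher and 2 lower (against 2.34 and 1.94% of all genes). The fold change was negative in 47 members and had a median of -0.14 on the log2 scale, against -0.003 over all genes. No member separated the groups without overlap in either direction, and the share over all genes was not counted. In the M-MDSC libraries the median gene of the monocyte list was at 60.6 to 78.0% of H Mono, below the 82.9 to 102% of C Mono, and the median gene of the neutrophil list was at 2.02 to 4.22% of H PMN, above the 0.17 to 1.2% of C Mono. Their part in the member values was not tested.

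The member called was ENSCAFG00000032583. It had 221, 208, 175, 149 and 114 CPM in the 5 M-MDSC libraries. In C Mono it ranged from 44.4 to 132 CPM with a median of 73.1, so that 4 M-MDSC libraries were above every C Mono library and the fifth overlapped. The difference was 1.18 on the log2 scale (SE 0.25, edgeR FDR = 0.0396). In the 3 H Mono libraries it had 101, 132 and 97.6 CPM, between these populations. In PMN-MDSCs it ranged from 0.48 to 348 CPM with a median of 98.9, and replicates 3, 8 and 9 were again lowest, at 20.6, 21.9 and 0.48 CPM. The M-MDSC call was lost when any of 12 of the 13 libraries was left out (C Mono replicate 1 was the exception), while the difference stayed between 1.10 and 1.36 on the log2 scale, and in each library series alone, where 0 members were called (adjusted p between 0.0111 and 0.0907 over the libraries left out).

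In tumor-bearing dogs the members were also higher in monocytes than in neutrophils. C Mono did not enter the selection, but the C PMN median was limited by it, so that one side of this comparison was fixed in part. The other side was set indirectly, since H Mono had to be at least 3 times H PMN. The members' C Mono levels were close to H Mono (median log2 difference -0.07). Their counts beside those of all genes therefore largely describe the choice. By edgeR over 11261 genes, 48 of 70 members were higher in C Mono (68.6%, against 34.1% of all genes tested) and 0 were lower (against 31.5%, with 1 lower at an unadjusted p under 0.05). DESeq2 called 59 higher and 0 lower (against 39.4 and 32.5% of all genes). The median difference was 1.58 on the log2 scale with TMM factors, against 0.03 over all genes. With library size alone as the scale, all genes shifted to a median of 1.08, the members to 2.74, and 66 members were higher and 0 lower (against 50.9 and 13.1% of all genes). Without the C PMN library of low depth, 57 members were higher and 0 lower (against 37.6 and 34.5%). Every C Mono library was above every C PMN library in 53 members (75.7%, against 34.5% of the genes tested), and in 56 without the C PMN library of low depth. For the 56, the share over all genes was not counted. Within the 2 library series named in the sample titles, 52 members were higher and 0 lower in the first (GAR4079, against 33.7 and 29.5% of all genes). In the second (PAT4694), 31 were higher and 1 lower (against 18.3 and 13.7%).

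Between C Mono and H Mono, 0 members were called by edgeR in either direction, as were 0 of all 12566 genes (0% higher and 0% lower). At an unadjusted p under 0.05 there were 7 of 70 members, against 938 of 12566 genes (7.46%), a similar share. Of the 7 members, 6 were higher in C Mono, and the direction over all genes at that p was not counted. DESeq2 called 1 member and 57 genes. The members' log2 differences lay between -0.98 and 0.86 with a median of -0.07. H Mono had taken part in the selection and had 3 libraries, all of the first series.

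The comparison of PMN-MDSC with C Mono asks how the raised level stood to that of monocytes from tumor-bearing dogs. The PMN-MDSC side had a lower limit by selection. In the deposited CPM, the PMN-MDSC median was above the C Mono median in 43 of 70 members and the median ratio was 1.17. In edgeR with TMM factors, 25 members were higher in PMN-MDSC (35.7%, against 24.2% of all 11448 genes tested) and 1 was lower (1.43%, against 22.5%). The median log2 difference was 0.90, against 0.11 over all genes. This split turned with the scale. With library size alone, 6 members were higher and 11 lower (all genes, 9.97 and 38.0%), the members' median was 0.01 and the median of all genes -0.75. Without the PMN-MDSC library of low depth, TMM gave 27 higher and 8 lower (against 28.9 and 30.5% of all genes). Within the first library series, 13 members were higher and 3 lower (against 22.5 and 23.4%). Within the second, 4 were higher and 0 lower (against 6.33 and 9.19%). With the series as a term, 19 were higher and 1 lower (against 23.2 and 23.0%). Since the members were chosen for a high PMN-MDSC level, their counts beside those of all genes describe the choice and support nothing further. Leaving out the 3 low libraries for their level would be a selection on the outcome and was not tested, and the median CPM ratio to C Mono without them was 1.36.

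ENSCAFG00000018589 had the smallest FDR among the members in this comparison. It had 429, 421, 544, 413, 500 and 441 CPM in PMN-MDSC replicates 1, 2, 4, 5, 6 and 7, and 11.6, 39.7 and 1.90 CPM in replicates 3, 8 and 9. In C Mono it ranged from 10.7 to 31.4 CPM with a median of 21.6, so that 7 PMN-MDSC libraries were above every C Mono library, replicate 3 was within the C Mono range and replicate 9 below it. The difference was 4.61 on the log2 scale (SE 0.72, edgeR FDR = 4.13e-05). The PMN-MDSC side had a lower limit by selection, so that this FDR describes the choice in part and supports nothing further. This gene was the member whose PMN-MDSC median was farthest beyond the monocyte level, at 17.6 times the H Mono mean and 55.8 times the H PMN mean. In M-MDSC it had 6.24, 13.2, 8.96, 7.39 and 14.3 CPM, near the neutrophil level and partly below C Mono (log2 difference -0.95, SE 0.30, edgeR FDR = 0.156).

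ENSCAFG00000013030 was the member called lower in PMN-MDSC than in C Mono. It had 20.9, 29.7, 20.2, 23.6, 26.8 and 12.2 CPM in PMN-MDSC replicates 1, 2, 4, 5, 6 and 7 and 4.13, 6.04 and 0.79 CPM in replicates 3, 8 and 9. In C Mono it was steadier, from 51.8 to 76.8 CPM with a median of 65.6, and no PMN-MDSC library reached that range. The log2 difference was -1.32 (SE 0.35, edgeR FDR = 0.00436). The call was lost in each library series alone, at -0.98 and -1.77 on the log2 scale.

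**Figure D5:**
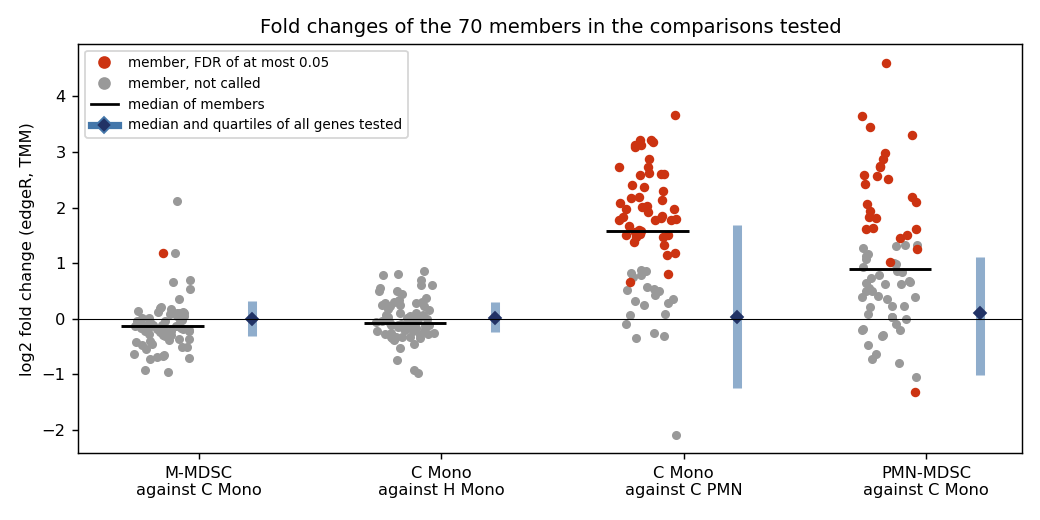
Log2 fold changes of the 70 members (points, edgeR with TMM factors; red, FDR of at most 0.05) in 4 comparisons, with the median of the members (black line) and the median and quartiles of all genes tested (diamond and bar). The medians of the members are -0.14, -0.07, 1.58 and 0.90 from left to right; with library size alone the last is 0.01.

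The PMN-MDSC libraries of both series included high and low member levels. Of the libraries with a low member level, replicate 3 belonged to the first series and replicates 8 and 9 to the second. Of the 6 others, 4 belonged to the first and 2 to the second. The median summed member level was 157% of H Mono over the 5 libraries of the first series and 96.8% over the 4 of the second, and the median share of the way to H Mono was 1.32 and 0.63. In edgeR on the 4 libraries of the second against the 5 of the first, 0 members were called in either direction, as were 0 of 10972 genes (0%). At an unadjusted p under 0.05 there were 7 of 70 members, against 907 of 10972 genes (8.27%), a similar share. All 7 were higher in the second series, and the direction over all genes at that p was not counted. DESeq2 called 0 members and 29 genes. The members' log2 differences ranged from -2.84 to 3.98 with a median of -0.31, and none of these differences passed the test. As no gene passed it, the result does not show that the series were alike in the members.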

How the data were processed

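Flow-sorted cells were profiled by Smart-seq2, a low-input protocol, with paired-end reads. The authors trimmed the reads, used HISAT2 for alignment to CanFam3.1 plus spike-in sequences, marked duplicates (Picard 1.92) and ran featureCounts (Subread 1.5.0) on Ensembl exons. The deposited counts were left by the authors without normalization. The deposited CPM values equalled the authors' counts over each library's total. For the TPM values, also deposited, the gene length used by the authors is not given in the sources used here. The counts are of reads after PCR, not of molecules. A second deposited CPM table held the same values and was not used. Libraries were grouped by the sample type in their labels. In each group, the counts of any 2 libraries differed by more than sampling noise.

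Members were found on the deposited CPM. The members and lists were chosen with earlier results of these data known. Each pair of groups was fitted alone, on the counts, with edgeR 4.0.16 (quasi-likelihood test, TMM, filterByExpr, Benjamini-Hochberg adjustment over all genes tested) in R 4.3.3, and all 70 members passed the filter in each fit. The tests were two-sided, and the fits were tested on simulated data. DESeq2 1.42.0 was an alternative, beside other scalings and filters, each library series alone or as a term, libraries under 10000000 counts left out, and each library left out. Values were summarised with pandas 2.3.3 and numpy 2.4.6, and log values used a pseudocount of 1 CPM. Genes were to be named by symbol, with at most 2 IDs of each direction if under 20 members had one. The IDs with the smallest FDR in each direction are therefore named, and lists of markers and pathways by symbol could not be used.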

Additional observations from a re-analysis of the deposited data

Results flagged for a closer look

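In the check for single libraries far from their group (20 checks of 4 to 10 libraries, of which chance flags about 1 in 20), 3 values stood out, all in C PMN replicate 7, the C PMN library of lowest depth. Its median member level was 1.65 in log2(CPM + 1), below the other 9 C PMN libraries at 2.55 to 3.53, with a gap of 0.48 of the group's range. ENSCAFG00000018589 was at 1.53 there against 2.92 to 4.10 elsewhere (gap of 0.54 of the range), and ENSCAFG00000013030 at 0.77 against 1.73 to 2.75 (gap of 0.49). In that library the 10 most abundant genes took 63.9% of the CPM and 3470 genes had 10 or more counts, and the part of this in the 3 values was not tested. The 3 PMN-MDSC libraries with a low member level were not picked out by this check, which looks for a single library.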

How the results depend on the processing

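The rule found between 53 and 103 genes in 16 alternatives, all within 1.5 times 70, with 43 members shared among the 56 found with TMM factors (61.4% of the members, 76.8% of those found). The median share of the way to H Mono was 1.03 to 1.28 with each PMN-MDSC library left out and 1.96 with TMM factors. In M-MDSC against C Mono, the count of 1 member called became 0 without the filter on low counts, 0 in each series alone (GAR4079 and PAT4694), 3 with DESeq2 and 0 to 1 with each library left out. In C Mono against C PMN, the 48 became 26 of 33 tested when 10 counts were required in every library, and 47 to 57 with each library left out. In PMN-MDSC against C Mono, the 26 became 17 with library size alone, 17 of 48 tested with 10 counts in every library, 16 in GAR4079 alone, 4 in PAT4694 alone and 22 to 38 with each library left out. In C Mono against H Mono DESeq2 called 1, and with each library left out edgeR called 0. The other alternatives kept each count within 1.5 times, and the cause of the changes was not tested. The alternatives without replicates 3 and 8, and without these and replicate 9, were chosen after seeing the data, and they gave 94 and 103 genes, which included all 70 members. Depth was lowest in C PMN replicate 7 and PMN-MDSC replicate 9. No paired analysis was possible because the labels give neither a dog nor a replicate number for a library.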

Other observations

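Genes that met the same limits on PMN-MDSC, C PMN and H PMN but differed in their monocyte level were also described in the PMN-MDSC libraries. There were 78 genes with H Mono under 3 times H PMN and 34 with H Mono at least 20 times H PMN. In PMN-MDSC replicates 1, 2, 4, 5, 6 and 7 the median fold over the H PMN mean was 5.82 to 9.14 in the 70 members, 6.59 to 10.1 in the first class and 4.87 to 14.2 in the second. In replicates 3 and 8 it was 1.14 and 1.42 in the members, 1.01 and 1.34 in the first class and 0.91 and 2.27 in the second. In replicate 9, of low depth, it was 0.81 in the members, 0.37 in the first class and 4.87 in the second, the last within the range of the 6 high libraries. In C Mono the classes differed by construction, with medians of 6.69, 1.02 and 43.7 times the H PMN mean. In M-MDSC, which the limits did not use, the medians were 5.52, 0.94 and 40.6. The 3 low libraries were exactly replicates 3, 8 and 9 in 72 of the 78 and in 14 of the 34 genes. These are descriptions of selected genes, and no difference between the classes was tested.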
